A study of Homo sapiens with 8 samples.

Results

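The genes described here are 10 inflammatory cytokine and NF-κB target genes: IL1A, IL1B, IL6, IL11, LIF, CXCL1, CXCL2, CXCL3, CXCL8 and TNFAIP3. They were picked from the 23393 genes of the count table after IL1A was seen to be higher in arginine-starved ρ0 cells than in ρ0 control cells. The table writes CXCL8 as IL8. The values that chose the list are therefore those of the ρ0 response to starvation. For these genes that response, and each quantity that contains it, is described here without a test. The ρ0 control libraries are part of that response. Tests between the control groups therefore give no independent support for these genes.

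RNA was sequenced from MDA-MB-231, an established human breast cancer cell line, and from a ρ0 derivative of it, clone 27, labelled as lacking mitochondrial DNA. There were 4 groups of 2 libraries, namely parental control, parental ADI, ρ0 control and ρ0 ADI. ADI is arginine deiminase, an enzyme that degrades arginine, and per the labels it was added to full medium at 0.3 µg/mL for 48 h, whereas the methods of the study describe culture in arginine-starved medium. Both are described as MDA-MB-231 cells kept in DMEM. Per the methods, the parental cells came from the American Type Culture Collection and the ρ0 line was a gift from another university. The methods list sodium pyruvate, uridine and ethidium bromide for the upkeep of ρ0 cells. Loss of mitochondrial DNA, these additions, the source of the stock and the choice of a clone therefore cannot be told apart. Genes of the mitochondrial genome were not analysed here, so the depletion could not be checked. The labels do not say that the 2 libraries of a group came from separate cultures, and p-values then measure only the spread between these samples, which may be technical.

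NF-κB is a family of transcription factors held in the cytoplasm by IκB proteins. Signals from receptors such as those for IL-1 and TNF release it through the IκB kinases, after which it switches on cytokine, chemokine and inhibitor genes. IL1A and IL1B encode the IL-1 ligands. IL6, IL11 and LIF encode cytokines that signal through the shared receptor gp130. CXCL1, CXCL2, CXCL3 and CXCL8 encode chemokines that attract neutrophils, and TNFAIP3 encodes A20, a feedback inhibitor of NF-κB. MDA-MB-231 cells are known for high basal secretion of several of these factors.

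The libraries held between 25259503 and 31022155 counts. Levels are given in CPM, which are counts scaled to a common library size by TMM. The biological coefficient of variation between the 2 libraries of a group was 5.18% for parental control, 2.25% for parental ADI, 25.1% for ρ0 control and 1.84% for ρ0 ADI. The ρ0 control libraries thus differed from each other more than the libraries of any other group, and the values of the 10 genes that use them are also given with either left out. Vimentin and CD44, which mark the mesenchymal state of this line, were high in all groups, and ESR1 and PGR were at 6 counts or fewer in each library. Vimentin still fell from 1742 CPM in parental control to 531 CPM in parental ADI. The leukocyte markers CD3E, MS4A1 and TYROBP were at 0 in all libraries. The summed level of the 14 leukocyte markers ranged from 53.7 to 257 CPM per library, most of it from CD68 and LAPTM5. The 9 luminal markers summed to between 416 and 433 CPM in parental control and to between 1225 and 1406 CPM in ρ0 control cells, and after ADI to between 314 and 319 CPM in parental and between 495 and 517 CPM in ρ0 cells. Among them, the epithelial marker CDH1 had 2 and 0 counts in the parental control libraries and 457 and 440 in the ρ0 control libraries. EPCAM, also epithelial, averaged 0.470 CPM in parental control and 23.1 CPM in ρ0 control. FOXA1 went the other way, with 7.35 CPM in parental control and 0.0334 CPM in ρ0 control. The ρ0 cells thus held epithelial markers beside the mesenchymal ones. The 8 markers of the MDA-MB-231 line summed to between 5238 and 5312 CPM in parental control, 3348 and 3391 CPM in parental ADI, 8098 and 9116 CPM in ρ0 control, and 7187 and 7309 CPM in ρ0 ADI. Both sums thus moved with starvation and with the line, and their part in the results was not tested.

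RefSeq promoters (GRCh38.p14) were found for 9 of the 10 genes, and LIF was the gene without one. Each covers 250 bases before to 50 bases after a start site, and IL1A, which has more than 1 start site, is represented by the first listed. The stretches of 60 bases below surround the matches to NF-κB motifs, because these are the genes named as NF-κB targets. Capitals mark the matches on either strand to the κB consensus or to the shorter κB-like stretch GGAATTTCC.
CXCL1 (chr4:73869289-73869348, + strand): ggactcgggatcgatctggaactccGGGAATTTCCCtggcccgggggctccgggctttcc
CXCL2 (chr4:74099239-74099298, - strand): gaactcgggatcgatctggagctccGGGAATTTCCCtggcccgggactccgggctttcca
CXCL3 (chr4:74038734-74038793, - strand): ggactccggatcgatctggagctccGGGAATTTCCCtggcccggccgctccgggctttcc
CXCL8 (chr4:73740452-73740511, + strand): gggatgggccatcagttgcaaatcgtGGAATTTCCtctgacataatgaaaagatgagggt
IL6 (chr7:22727102-22727161, + strand): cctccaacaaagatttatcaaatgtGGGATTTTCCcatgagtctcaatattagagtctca
TNFAIP3 (chr6:137867167-137867226, + strand): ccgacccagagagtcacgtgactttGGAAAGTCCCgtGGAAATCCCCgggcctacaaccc

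The κB consensus was matched in 5 of the 9 promoters (IL6, CXCL1, CXCL2, CXCL3 and TNFAIP3), and 10.8% of 27305 RefSeq promoters hold it. The κB-like stretch GGAATTTCC lies within the κB matches of CXCL1, CXCL2 and CXCL3 but not within those of IL6 and TNFAIP3. It was also found in CXCL8, and 0.472% of all promoters hold it. In CXCL1 and CXCL3 the consensus match ran from -79 to -70 relative to the start site, and in CXCL2 from -78 to -69. The promoters of CXCL1 and CXCL2 were identical at 90.2% of aligned bases, those of CXCL1 and CXCL3 at 87.0% and those of CXCL2 and CXCL3 at 84.3%. The TNFAIP3 promoter held 2 κB matches, both on the opposite strand. These letters were not found in the windows of IL1A, IL1B and IL11.

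The promoters of IL1A and IL11 are shown whole because, of the 10 genes, they differed most from control after ADI, IL1A within ρ0 cells and IL11 within parental cells. Capitals mark the AP-1 motif TGANTCA, which reads the same on both strands when N is ignored. AP-1 is the transcription factor formed by FOS, JUN and ATF proteins.
IL1A (chr2:112784444-112784743, - strand): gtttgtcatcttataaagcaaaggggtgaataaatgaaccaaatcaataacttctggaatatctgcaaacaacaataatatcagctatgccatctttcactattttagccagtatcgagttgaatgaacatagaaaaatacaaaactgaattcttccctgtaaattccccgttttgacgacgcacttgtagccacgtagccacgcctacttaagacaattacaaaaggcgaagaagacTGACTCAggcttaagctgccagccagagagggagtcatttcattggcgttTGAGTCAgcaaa
IL11 (chr19:55370414-55370713, - strand): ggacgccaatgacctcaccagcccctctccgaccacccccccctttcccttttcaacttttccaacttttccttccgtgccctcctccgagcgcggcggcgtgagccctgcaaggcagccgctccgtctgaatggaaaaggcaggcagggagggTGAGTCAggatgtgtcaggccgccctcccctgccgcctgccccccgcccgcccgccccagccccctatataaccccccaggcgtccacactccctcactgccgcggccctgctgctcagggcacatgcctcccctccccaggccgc

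AP-1 matches were present in IL1A (at -12 to -6 and at 38 to 44), in IL11 (at -96 to -90) and in CXCL8 (at -137 to -131), and in 7.76% of all promoters. The C/EBP motif TTGCNNAA was matched in IL1B, IL6 and CXCL2, and in 10.6% of all promoters. The TATA motif TATAAA was found in IL1A and CXCL8 and in 12.0% of all promoters, and the SP1 motif GGGCGG in IL11, CXCL1, CXCL3 and TNFAIP3 and in 44.6%. The motif TGATGNAA of ATF4 with C/EBP partners was in none of the 9 promoters and in 3.67% of all, and TGACGTCA, bound by CREB, in none of the 9 and in 1.98%. A match describes the letters and not a bound site.

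**Figure D1:**
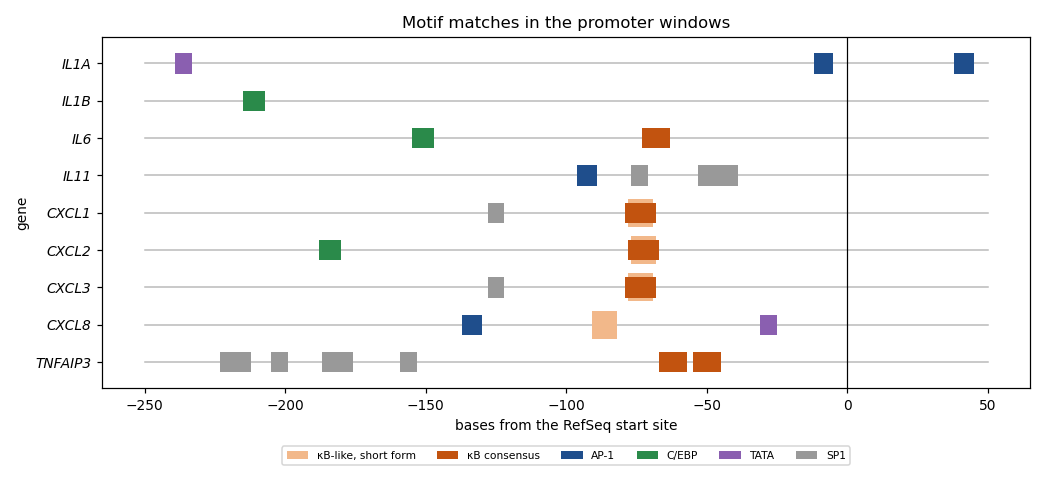
Motif matches on either strand in the 9 promoter windows, by distance in bases from the RefSeq start site (0, vertical line); boxes are matches and grey lines the windows. The κB boxes of CXCL1, CXCL2 and CXCL3 lie at nearly the same distance, from -79 to -68, and those of IL6, TNFAIP3 and CXCL8 nearby.

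Most mRNAs of this kind also carry AU-rich elements after the coding region, through which proteins such as ZFP36 shorten the life of the transcript. In the longest annotated 3′ region of each gene (GENCODE 29), the motif ATTTA occurred at between 1.27 and 14.0 per kb, with a median of 7.14 over the 10 genes and of 1.52 over 18769 genes. Only TNFAIP3, at 1.27 per kb, lay below that median. The nonamer TTATTTATT was present in 8 of the 10 genes, all but IL1A and IL6, and in 8.31% of the 18769. The 30 bases richest in ATTTA are shown for CXCL2 and IL6, which had the highest densities, and for IL1A, with ATTTA in capitals.
CXCL2 (bases 137 to 166 after the stop codon): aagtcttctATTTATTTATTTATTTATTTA
IL6 (bases 124 to 153 after the stop codon): ttttaattatttttaATTTAttaatATTTA
IL1A (bases 614 to 643 after the stop codon): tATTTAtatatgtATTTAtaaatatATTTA

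IL1A was almost as high in starved ρ0 cells as in parental cells and was low in ρ0 control cells alone. It measured 74.4 and 78.8 CPM in the parental control libraries, 68.5 and 71.0 CPM in parental ADI, 4.16 and 3.02 CPM in ρ0 control, and 70.6 and 70.3 CPM in ρ0 ADI. The 2 ρ0 control libraries, with 120 and 94 counts, lay below all others, and the ρ0 ADI libraries lay between the libraries of the parental ADI group. In ρ0 cells the level after ADI was thus 19.6-fold that of the control (log2 fold change 4.30, standard error 0.15, described without a test). This value was 4.54 without ρ0 control replicate 1 and 4.09 without replicate 2. In parental cells the log2 fold change was -0.14 (standard error 0.12), which did not pass the test (edgeR adjusted p = 0.34), although its adjusted p was 0.029 with limma-voom weighted by group and 0.018 in edgeR without ρ0 control replicate 1. ρ0 control cells held 4.69% of the parental control level, 21.4-fold less, which is also given without a test because the same ρ0 control libraries entered the choice of the gene.

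IL1B fell in starved parental cells and was far lower in ρ0 than in parental cells. It measured 439.8 and 472.3 CPM in parental control, 133.7 and 130.2 CPM in parental ADI, 5.10 and 5.18 CPM in ρ0 control, and 17.4 and 17.2 CPM in ρ0 ADI. No group overlapped another. The fall in parental cells was 3.46-fold (log2 fold change -1.79, standard error 0.08, edgeR adjusted p = 6.7e-06). The ρ0 control level was 88.7-fold below that of parental control (log2 fold change -6.47, standard error 0.10, edgeR adjusted p = 6.5e-08). The ρ0 control libraries entered the choice of the list. This test, and each test between the control groups for the genes below, therefore gives no independent support. In ρ0 cells the starved level was 3.36-fold the control level, at a log2 fold change of 1.75 (1.74 and 1.77 without ρ0 control replicates 1 and 2), and it was 3.79% of the parental control level. Thus IL1A reached the parental level in starved ρ0 cells, and IL1B remained 7.63-fold below that of starved parental cells.

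IL6, the ligand of the IL-6 receptor, differed from the other genes in being higher in ρ0 than in parental control cells. It measured 43.4 and 50.1 CPM in parental control, 25.7 and 25.2 CPM in parental ADI, 96.0 and 78.8 CPM in ρ0 control, and 184.7 and 189.6 CPM in ρ0 ADI. Starvation lowered it 1.83-fold in parental cells (log2 fold change -0.88, standard error 0.12, edgeR adjusted p = 4.3e-04), which is short of the 2-fold threshold. With scaling by total counts alone the value was -1.04 and passed it. The ρ0 control level was 1.87-fold that of parental control (log2 fold change 0.90, edgeR adjusted p = 3.6e-04), and this difference came to 1.01 without parental control replicate 2 and to 1.10 without ρ0 control replicate 2, past the threshold. In ρ0 cells the starved level was 2.14-fold the control level (log2 1.10, or 1.25 and 0.98 without ρ0 control replicates 1 and 2). Starved ρ0 cells held 7.35-fold more IL6 than starved parental cells.

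IL11 rose more than any other of the 10 genes in starved parental cells. It measured 36.6 and 40.5 CPM in parental control, 654.0 and 629.4 CPM in parental ADI, 15.9 and 31.2 CPM in ρ0 control, and 57.3 and 59.98 CPM in ρ0 ADI. The rise was 16.7-fold (log2 fold change 4.06, standard error 0.28, edgeR adjusted p = 2.4e-05). In ρ0 cells the starved level was 2.49-fold the control level, a log2 fold change of 1.31 that was 0.91 without ρ0 control replicate 1 and 1.89 without replicate 2. The ρ0 control libraries differed 1.96-fold from each other. Their level was 1.64-fold below that of parental control (log2 fold change -0.71, edgeR adjusted p = 0.046), short of the threshold, and -1.22 and past it without ρ0 control replicate 2. IL11 was the gene of the 10 whose log2 response was smaller in ρ0 than in parental cells, with a difference of -2.74 (standard error 0.37).

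LIF, the leukaemia inhibitory factor, was higher after ADI in both lines. It measured 140.8 and 141.4 CPM in parental control, 209.8 and 203.6 CPM in parental ADI, 127.2 and 102.8 CPM in ρ0 control, and 255.9 and 256.4 CPM in ρ0 ADI. The parental rise was 1.46-fold (log2 fold change 0.55, standard error 0.11, edgeR adjusted p = 0.0025). The ρ0 value was 2.23-fold (log2 1.16, or 1.32 and 1.02 without ρ0 control replicates 1 and 2). The control levels of the lines differed by -0.30 on the log2 scale (edgeR adjusted p = 0.041). IL11 and LIF were the genes of the list with higher levels after ADI in every library of both lines. The other 8 were lower in both parental ADI libraries than in both parental controls. The share of all genes with this separation was not counted, so nothing is read from the number that were lower. By another measure, an edgeR adjusted p under 0.05, 35.5% of all genes were down in parental cells.

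CXCL1 showed the largest fall in starved parental cells. It measured 54.2 and 64.2 CPM in parental control, 4.51 and 4.54 CPM in parental ADI, 6.87 and 2.80 CPM in ρ0 control, and 10.4 and 10.1 CPM in ρ0 ADI. The parental control libraries lay above all others, and the fall was 13.1-fold (log2 fold change -3.71, standard error 0.35, edgeR adjusted p = 8.0e-05). The 2.46-fold gap between the ρ0 control libraries was the widest of any of these genes in any group. The ρ0 log2 fold change of 1.09 was accordingly 1.87 without replicate 1 of that group and 0.59 without replicate 2. ρ0 control cells held 12.3-fold less than parental control cells (log2 fold change -3.62, edgeR adjusted p = 8.8e-05), with a range from -4.40 to -3.05 when either ρ0 control library was left out.

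CXCL2 and CXCL3 also fell in starved parental cells and were lowest in ρ0 control cells. CXCL2 measured 23.7 and 26.9 CPM in parental control, 10.9 and 9.29 CPM in parental ADI, 4.06 and 3.34 CPM in ρ0 control, and 15.9 and 14.1 CPM in ρ0 ADI. It fell 2.51-fold in parental cells (log2 fold change -1.33, standard error 0.15, edgeR adjusted p = 1.8e-04) and was 4.05-fold higher in starved than in control ρ0 cells. CXCL3 measured 14.9 and 17.4 CPM in parental control, 3.92 and 3.90 CPM in parental ADI, 1.39 and 1.16 CPM in ρ0 control, and 3.48 and 3.36 CPM in ρ0 ADI. It fell 4.13-fold in parental cells (log2 fold change -2.04, standard error 0.15, edgeR adjusted p = 3.1e-05), and its ρ0 ratio was 2.69. Without ρ0 control replicates 1 and 2 the ρ0 log2 fold changes were 2.17 and 1.90 for CXCL2, and 1.56 and 1.31 for CXCL3. Between the control groups, CXCL2 was 6.84-fold and CXCL3 12.7-fold lower in ρ0 cells (edgeR adjusted p = 9.5e-06 and 4.0e-06).

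CXCL1, CXCL2 and CXCL3 are paralogs, and the counting could have split their reads. Their transcripts were 90.98% identical between CXCL1 and CXCL2, 84.7% between CXCL1 and CXCL3 and 85.1% between CXCL2 and CXCL3 (aligned bases, GENCODE 29). Of all windows of 50 bases in the CXCL2 transcript, 5.13% also occurred unchanged in CXCL1 and 4.62% in CXCL3. How far this affects the separate levels of the 3 genes was not measured, so they are uncertain.

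CXCL8, which encodes interleukin-8, was the most abundant chemokine of the list. It measured 438.7 and 455.9 CPM in parental control, 251.0 and 260.8 CPM in parental ADI, 24.3 and 16.7 CPM in ρ0 control, and 127.0 and 127.5 CPM in ρ0 ADI. The groups did not overlap. It fell 1.75-fold in parental cells (log2 fold change -0.81, standard error 0.15, edgeR adjusted p = 0.0022), short of the 2-fold threshold. In ρ0 cells the ratio of starved to control was 6.22 (log2 2.64, or 2.93 and 2.40 without ρ0 control replicates 1 and 2), the largest after that of IL1A. The ρ0 control level was 21.8-fold below the parental one (log2 fold change -4.45, standard error 0.17, edgeR adjusted p = 1.9e-06). After ADI, ρ0 cells held 28.5% of the parental control level, against 4.58% before.

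TNFAIP3 measured 128.8 and 128.4 CPM in parental control, 98.6 and 101.2 CPM in parental ADI, 39.5 and 56.6 CPM in ρ0 control, and 101.8 and 96.5 CPM in ρ0 ADI. The libraries of the ADI groups overlapped between the lines, as they did for IL1A. The parental log2 fold change of -0.36 (standard error 0.15) did not pass the test in the main fit (edgeR adjusted p = 0.064). Its edgeR adjusted p was 0.019 with scaling by total counts alone and 0.024 with upper quartile scaling. It was 1.7e-05 in an edgeR fit to the parental libraries alone and 9.0e-06 with limma-voom weighted by group. Without ρ0 control replicates 1 and 2 the parental log2 fold change was -0.37 and -0.33. In ρ0 cells the log2 fold change was 1.05, or 0.81 and 1.34 without ρ0 control replicates 1 and 2. The ρ0 control level was 2.68-fold below that of parental control (log2 fold change -1.42, edgeR adjusted p = 1.6e-04).

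**Figure D2:**
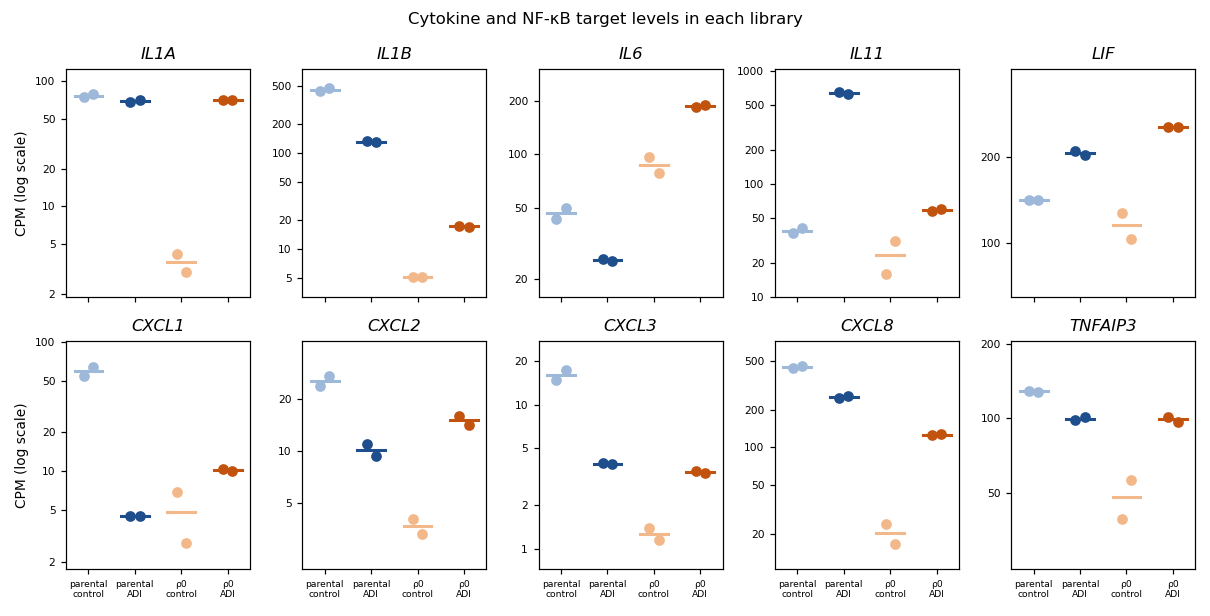
Level of each gene in each library in CPM (log scale); points are the 2 libraries of a group and the line is their mean. For 8 of the 10 genes (all but CXCL1 and IL6) both ρ0 control libraries lie below all others, as they do for 12.4% of the 15262 tested genes, and the ρ0 control libraries entered the choice of the list.

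Across the list, 5 of the 10 genes were called in starved parental cells at an adjusted p under 0.05 and at least a 2-fold change. IL11 was called up, where 12.7% of the 15262 tested genes were called up, and IL1B, CXCL1, CXCL2 and CXCL3 were called down, where 22.1% of all genes were. At any fold change, 2 genes of the list were up (30.4% of all genes) and 6 down (35.5%). The median log2 fold change of the list was -0.84, and that of all tested genes was -0.07. Without each library in turn, 5 genes were called each time.

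Between the control groups, IL1A aside, 6 of 9 genes were called lower in ρ0 cells, namely IL1B, CXCL1, CXCL2, CXCL3, CXCL8 and TNFAIP3, where 17.3% of all genes were called lower. None was called higher (13.6% of all genes), although IL6, at 0.90 on the log2 scale, had an adjusted p of 3.6e-04 with edgeR. The ρ0 control libraries entered the choice of the list, so nothing is read from these counts. The median log2 difference of the 10 genes was -3.20, and that of all genes -0.01. IL1A, IL1B and CXCL8 were the genes that lay furthest below the parental level. Without ρ0 control replicates 1 and 2 the log2 differences were -4.66 and -4.15 for IL1A, -6.46 and -6.43 for IL1B, and -4.74 and -4.15 for CXCL8. They were -2.92 and -2.58 for CXCL2, -3.79 and -3.48 for CXCL3, and -1.18 and -1.65 for TNFAIP3. IL6 gave 0.76 and 1.10, IL11 -0.30 and -1.22, and LIF -0.46 and -0.10.

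In starved ρ0 cells all 10 genes exceeded the control level by more than 2-fold, where 5.54% of all genes did. This is the contrast from which the list was picked, so nothing is read from the count. Their log2 fold changes ran from 1.05 for TNFAIP3 to 4.30 for IL1A, with a median of 1.37. Those nearest the 2-fold line were TNFAIP3 at 1.05, CXCL1 at 1.09 and IL6 at 1.10. When ρ0 control replicate 1 was left out, IL11 and TNFAIP3 fell short of 2-fold, and without replicate 2, CXCL1 and IL6 did. With scaling by total counts alone TNFAIP3 did, at 0.97.

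The ρ0 response exceeded the parental response by more than 1 on the log2 scale for 8 of the 10 genes, where 19.1% of all genes did so. IL11 went the other way, with 10.1% of all genes, and LIF differed by 0.60. The difference was widest for CXCL1 (4.80) and IL1A (4.43) and lay between 3.35 and 3.54 for IL1B, CXCL2, CXCL3 and CXCL8. Without ρ0 control replicates 1 and 2 it was 5.58 and 4.26 for CXCL1, 4.68 and 4.19 for IL1A, and -3.15 and -2.20 for IL11. It was 3.53 and 3.52 for IL1B, 3.50 and 3.19 for CXCL2, 3.61 and 3.32 for CXCL3, and 3.74 and 3.17 for CXCL8. The other genes gave 2.13 and 1.81 (IL6), 0.77 and 0.43 (LIF), and 1.18 and 1.67 (TNFAIP3). For the 8 genes with the larger ρ0 response both ADI libraries lay below both controls in parental cells and above both in ρ0 cells, a pattern held by 7.11% of all genes, and its ρ0 side is the direction the list was picked on. The starvation contrasts use separate control libraries, but the difference contains the ρ0 response and was not tested for these genes.

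After ADI, the lines were closer to each other than before for most of the list. IL6 (log2 difference 0.90 before and 2.88 after) and IL11 (-0.71 and -3.45) moved apart, and LIF changed sign (-0.30 and 0.31). This shift contains the ρ0 response on which the list was picked. The share of all genes that came closer was not counted, so nothing is read from it. The median log2 difference between starved ρ0 and starved parental cells was 0.00, against -3.20 between the controls. IL6 (2.88) and CXCL1 (1.18) were more than 2-fold higher in ρ0 cells, where 20.1% of all genes were. IL11 (-3.45), IL1B (-2.93) and CXCL8 (-1.01) were more than 2-fold lower, where 17.9% of all genes were. For IL1A and TNFAIP3 the differences were 0.01 and -0.01 (standard error 0.12 and 0.15). The summed level of the 10 genes was 1395 and 1476 CPM in parental control, 1461 and 1439 CPM in parental ADI, 324.5 and 301.5 CPM in ρ0 control, and 844.5 and 845.0 CPM in ρ0 ADI. The nearly equal parental sums held different genes, since IL11 supplied 38.5 CPM of the control and 641.7 CPM of the ADI mean.

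**Figure D3:**
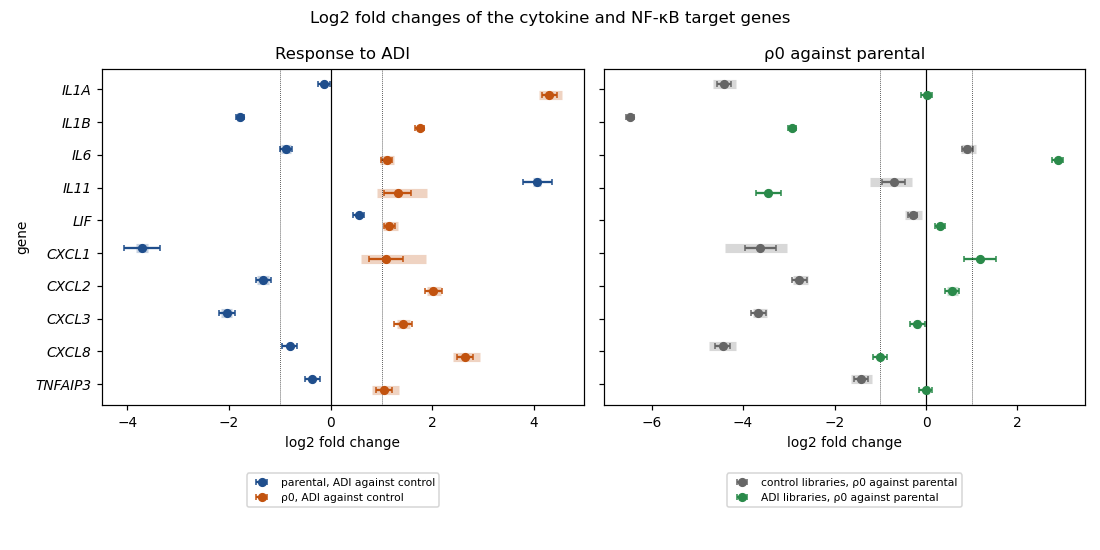
Log2 fold changes of each gene, ADI against control within each line (left) and ρ0 against parental within each condition (right); points are estimates from the fit to 8 libraries, whiskers 1 standard error, pale bars the range when each library is left out in turn, and dotted lines 2-fold. ρ0 points lie above 1 for all 10 genes, parental points below 0 for 8, and the pale bars are widest for IL11 and CXCL1.

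To order the genes by level within a group, CPM was divided by the length of their exons in kb. In parental control cells IL1B (280 CPM per kb) and CXCL8 (223) came first, followed by CXCL1 (54.0), IL1A (36.1), LIF (35.6), IL6 (27.2), TNFAIP3 (27.2), CXCL2 (20.8), IL11 (16.3) and CXCL3 (15.03). The library ranges of IL1A and LIF, of IL6 and TNFAIP3, and of IL11 and CXCL3 overlapped, so these neighbours did not differ beyond their spread. In starved parental cells IL11 came first, at 271 CPM per kb, before CXCL8 (128) and IL1B (80.9), and no neighbours overlapped. In ρ0 control cells IL6 (51.0) and LIF (28.98) led, while CXCL8 (10.2), TNFAIP3 (10.1) and IL11 (9.92) overlapped and IL1A (1.69) and CXCL3 (1.18) came last. In starved ρ0 cells the order was IL6 (109), LIF (64.5), CXCL8 (63.5), IL1A (33.2), IL11 (24.7), TNFAIP3 (20.9), CXCL2 (12.3), IL1B (10.6), CXCL1 (9.33) and CXCL3 (3.18). IL1B thus had rank 1 in parental control cells and rank 8 in starved ρ0 cells. In bulk RNA, fewer cells that express a gene and less RNA of it per cell cannot be told apart.

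The genes were also compared by the likeness of their log2 CPM over the 8 libraries, which form 4 groups, as a description without a test. CXCL8 was most like IL1B (Pearson r = 0.94), IL1A (0.93) and TNFAIP3 (0.93), and CXCL2 was most like CXCL3 (0.92). IL6 stood apart, with r between -0.66 (IL1B) and 0.22 (LIF). IL11 was most like LIF (0.54). Among 13212 other genes, the nearest to IL1A were MXI1 (0.99), BATF3 (0.98) and C22orf23 (0.98). MXI1, a MYC antagonist, averaged 79.5, 90.9, 21.1 and 91.5 CPM in parental control, parental ADI, ρ0 control and ρ0 ADI. NFKB2, an NF-κB subunit, was among the 3 nearest to TNFAIP3 (0.98), with means of 239, 219, 157 and 223 CPM. BCAT1, which starts the breakdown of branched-chain amino acids, was nearest to LIF (0.996). DRAM1 was nearest to IL1B (0.996), COLGALT1 to IL6 (0.9996), USP42 to IL11 (0.999), CACNG7 to CXCL1 (0.99), SEC14L1 to CXCL2 (0.98), LRRC49 to CXCL3 (0.996) and TSNARE1 to CXCL8 (0.999).

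The chemokine genes lie together on chromosome 4 and the IL-1 genes side by side on chromosome 2, so the genes beside them in RefSeq order were examined. Between CXCL8 and CXCL2 lie CXCL6, PF4V1, PF4 and PPBP, which did not pass the filter on low counts, and CXCL5, which averaged 2.26 CPM in parental control, 0.0375 in parental ADI, 0.0173 in ρ0 control and 0.0169 in ρ0 ADI. Beyond CXCL2, the gene MTHFD2L had 17.1, 21.0, 14.8 and 18.6 CPM in the order of groups above. EREG, the growth factor epiregulin, had 2.71, 4.19, 83.1 and 154.9 CPM. Its higher level in ρ0 cells is opposite to that of the chemokines. Beside IL1A, CKAP2L fell from 61.3 to 16.1 CPM in starved parental cells (log2 fold change -1.93, edgeR adjusted p = 1.3e-05) and measured 92.2 and 63.3 CPM in ρ0 control and ρ0 ADI. SLC20A1 lay between 249 and 402 CPM in the 4 groups. The IL-36 genes and IL37 beside IL1B did not pass the filter, nor did OSM beside LIF. Of the genes listed beside IL6, RAPGEF5 had 20.7 and 8.52 CPM in the parental groups and 0.0173 and 0.0338 CPM in the ρ0 groups.

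The wider pathway was followed in a list of 176 other genes of cytokine and NF-κB biology, of which 156 were tested. In starved parental cells 26 were called up and 51 down (16.7% and 32.7% of the list), beside 12.7% and 22.1% of all genes. In starved ρ0 cells 15 were called up and 10 down, or 9.62% and 6.41%, beside 4.22% and 8.19% of all genes. Between the control groups 25 were higher and 32 lower in ρ0 cells, or 16.0% and 20.5%, near the 13.6% and 17.3% of all genes. The counts in starved ρ0 cells moved when either ρ0 control library or ρ0 ADI replicate 1 was left out, as did the calls over all genes. With limma-voom weighted by group the starved ρ0 cells had 13 up and 5 down. Of all 15262 genes, 415 were called up and 908 down in that fit. The median log2 fold change of the list was -0.19 in parental and 0.13 in ρ0 cells.

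Of the NF-κB subunits and IκB proteins, RELA rose in both lines (log2 fold changes 1.17 and 0.45, edgeR adjusted p = 2.8e-05 and 0.0048), and REL rose in parental cells (1.27, edgeR adjusted p = 0.0017). NFKB1 rose by 0.33 in parental cells and had 0.05 in ρ0 cells. RELB rose by 0.56 in parental and 0.99 in ρ0 cells (edgeR adjusted p = 0.0023 and 5.1e-04). NFKB2 had -0.13 in parental cells (edgeR adjusted p = 0.29) and rose by 0.51 in ρ0 cells (edgeR adjusted p = 0.0060). NFKBIA, which encodes the inhibitor IκBα and is itself an NF-κB target, fell by 0.97 in parental cells (edgeR adjusted p = 0.0015) and had 0.02 in ρ0 cells. NFKBIB rose by 2.53 and 0.79. Among the 20 kinases and adaptors, IKBKB, the main IκB kinase, fell by 1.63 in parental cells and rose by 0.43 in ρ0 cells, while RBCK1, of the linear ubiquitin ligase, rose by 1.01 in ρ0 cells. MYD88 and MAP3K14 were higher in ρ0 than in parental controls, by 1.86 and 2.17.

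The receptors differed in direction. IL1R1, the IL-1 receptor, fell in starved parental cells from 167 and 145 counts to 8 and 19, and had 961 and 502 counts in ρ0 control and 402 and 344 in ρ0 ADI. IL6ST, which encodes gp130, rose in both lines (log2 fold changes 0.76 and 1.14, edgeR adjusted p = 1.7e-04 in each) and was 1.73 higher in ρ0 controls. IL6R rose by 1.17 and 1.56 and was 3.19 lower in ρ0 control than in parental control cells. Of 13 receptors tested, 6 were called down and 1 up in parental cells, where 22.1% of all genes were called down and 12.7% up. Of 10 genes for IL-1 processing, 6 were called down in parental and 3 in ρ0 cells, and none up in either (22.1% and 8.19% of all genes were called down). GSDMD, the pore protein through which IL-1β leaves the cell, fell by 3.74 and 1.25, and CASP1, which cleaves the IL-1β precursor, fell by 3.76 and 1.46.

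Among 25 other cytokines and chemokines, 13 were called down and 5 up in parental cells, and 1 down and 4 up in ρ0 cells. Of all genes, 22.1% were called down and 12.7% up in parental cells, and 8.19% and 4.22% in ρ0 cells. CSF2, which encodes GM-CSF, rose by 2.90 in ρ0 cells from 849 and 800 counts to 6164 and 4930 (edgeR adjusted p = 1.6e-05) and had -0.19 in parental cells. IL24 rose by 2.41 and 2.51, although the ρ0 controls held 268 and 1426 counts. CCL2 had 20243 and 19799 counts in parental control, 1458 and 1798 in parental ADI, and 5 or fewer in each ρ0 library. Of 28 other NF-κB targets, 14 were called down and 2 up in parental cells, and 1 down and 2 up in ρ0 cells, against the same shares. PTGS2, which encodes cyclooxygenase-2, fell by 1.93 in parental cells from 5445 and 4401 counts to 1002 and 1221 and rose by 1.22 in ρ0 cells, where the controls held 8 and 21. ICAM1 was at 31 counts or fewer in each parental library and between 2639 and 5288 in the ρ0 libraries.

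Partner transcription factors were more often called up than down. Of 17 C/EBP, STAT and AP-1 genes, 7 were called up and 1 down in parental cells (12.7% and 22.1% of all genes) and 5 up in ρ0 cells (4.22% of all genes). FOSB rose from 42 and 53 counts to 560 and 718 in parental cells, while in ρ0 cells it had 33 and 137 in control and 83 and 57 in ADI libraries. CEBPG rose by 1.44 and 1.67. ZFP36, whose protein binds AU-rich elements, rose in both lines (log2 fold changes 1.91 and 1.11, edgeR adjusted p = 1.7e-05 and 5.3e-04). ZC3H12A, an RNase that degrades IL6 mRNA, fell by 1.71 in parental cells and had -0.36 in ρ0 cells (edgeR adjusted p = 0.14). CDKN1A, the cell cycle inhibitor p21, rose from 3400 and 3121 counts to 10570 and 11992 in parental cells and by 0.47 on the log2 scale in ρ0 cells.

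**Figure D4:**
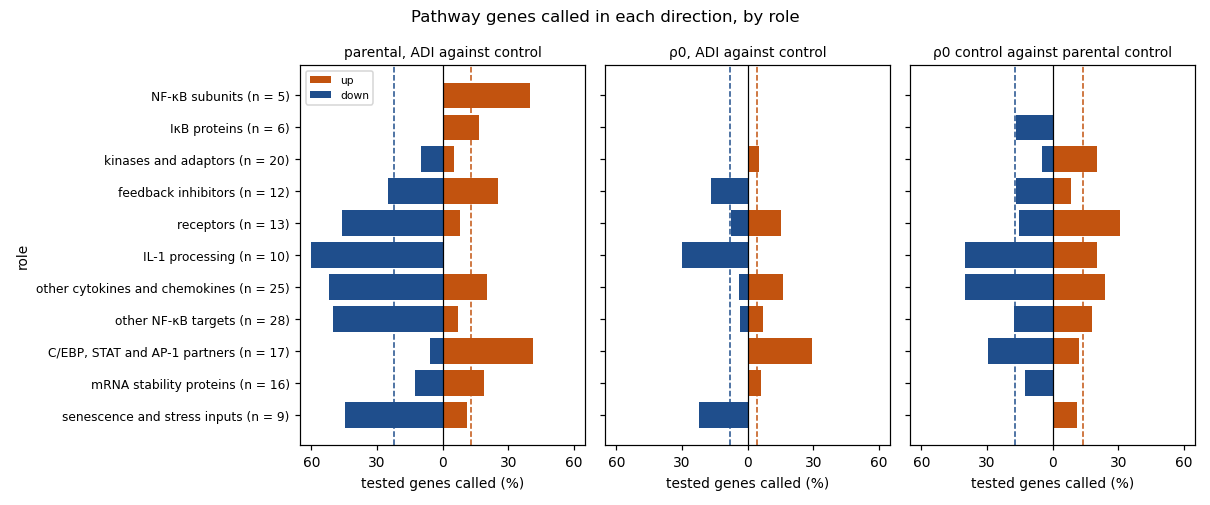
Share of tested pathway genes called up (right, orange) and down (left, blue) by role, for starvation in parental cells, starvation in ρ0 cells and ρ0 against parental controls; dashed lines are the shares over all 15262 tested genes, and n is the number of tested genes. In parental cells the largest shares called down are those of IL-1 processing (60%), other cytokines and chemokines (52%) and other NF-κB targets (50%).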

How the data were processed

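RNA of 8 libraries (2 per group) was extracted with Trizol and sequenced by the authors on an Illumina protocol. The authors deposited their unnormalized counts of reads as 1 table with a row for each symbol. The submitters' processing notes name Bowtie, Partek and the build hg19. Their versions and roles, the annotation and the use of strand are not given in the sources used here. Whether multi-mapping reads were kept bears on CXCL1, CXCL2 and CXCL3.

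The main tool was edgeR 4.0.16, run under R 4.3.3 (limma 3.58.1 for voom). The 15262 genes that passed filterByExpr on the 4 groups, all 10 members among them, were scaled by TMM and fitted by the quasi-likelihood method with 1 mean per group over 8 libraries, leaving 4 residual degrees of freedom. Each gene had 1 spread for all groups, although variation within groups ran from 1.84% to 25.1%. P-values may thus be too small in comparisons with ρ0 control and too large between the parental groups. In starved ρ0 cells 644 genes were called up and 1250 down in this fit, against 415 and 908 with limma-voom weighted by group. P-values were adjusted by Benjamini-Hochberg over all tested genes, and a gene was called at an adjusted p-value under 0.05 and more than 2-fold change. The standard error was taken as the absolute log2 fold change over the root of the F statistic. The members and the gene lists were chosen with earlier results of these data known. From the pathway list, up to 2 rises and 2 falls per role and contrast, among called genes with a mean of at least 1 CPM, could be named (1 of them is not reported here), and also NFKB1, RELA, NFKBIA, IL1R1, IL6ST and ZFP36. The responses of RELB and NFKB2 were added with their values in view. For each member the 3 genes with the highest Pearson r were taken. Neighbouring genes were taken by RefSeq order, and the choice of CXCL5, MTHFD2L, CKAP2L, SLC20A1, EREG and RAPGEF5 among them was made with their values in view.

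Promoters are from RefSeq (GRCh38.p14) and transcripts from GENCODE 29, another build than that of the counts, so they were used for sequence, length and order. Motifs were searched on both strands. The edgeR, DESeq2 and unweighted limma-voom fits were tried on simulated counts for the parental starvation contrast. All genes and groups had the same spread there. The wider spread of the ρ0 control libraries was not simulated, and the other contrasts were not checked. Alternatives were 3 other scalings, 2 other filters, DESeq2 1.42.0, limma-voom with and without a weight per group, a block for the replicate number, a fit to the libraries of either line by itself, a looser and a stricter call rule, and the removal of each library in turn.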

Additional observations from a re-analysis of the deposited data

Results flagged for a closer look

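The responses of 8 of the 10 cytokine and NF-κB target genes to ADI went in opposite directions in the lines, with both starved libraries below both controls in parental cells and above both controls in ρ0 cells. Of all tested genes 7.11% showed this pattern, and its ρ0 side is the direction on which the list was picked. On the log2 scale the ρ0 response minus the parental response was 4.43 for IL1A, 3.54 for IL1B, 1.97 for IL6, 4.80 for CXCL1, 3.35 for CXCL2, 3.47 for CXCL3, 3.44 for CXCL8 and 1.41 for TNFAIP3. The difference was not tested for these genes, since the ρ0 response chose them. For IL1A and TNFAIP3 the parental part did not pass its own test in the main edgeR fit, with adjusted p = 0.34 and 0.064. With limma-voom weighted by group the adjusted p was 0.029 for IL1A and 9.0e-06 for TNFAIP3. In an edgeR fit to the parental libraries alone it was 0.099 and 1.7e-05. For TNFAIP3 it was also 0.019 in edgeR with scaling by total counts alone and 0.024 with upper quartile scaling. Whether the parental fall of these 2 genes passes thus depends on the processing.

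Of 43 pathway genes named for either starvation contrast, 39 differed in response between the lines by edgeR's test of the interaction (adjusted p from 4.5e-05 to 0.040), 24 with a higher and 15 with a lower value in ρ0 cells. These genes were mostly named for a strong change in 1 of the lines, so the count is no measure of how often pathway genes differ. Of all tested genes, 21.6% had a higher and 18.8% a lower response in ρ0 cells by the same test. Without either ρ0 control library the 39 genes kept their direction. They had been selected by the interaction test on these same libraries, so this gives no independent support. The values below are ρ0 minus parental log2 fold changes, and both lines enter with 2 libraries per group.

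Among subunits, IκB proteins, kinases and adaptors, the differences were -1.18 for REL, -0.72 for RELA, -1.73 for NFKBIB, -1.24 for CHUK, 1.25 for TAB1, 2.06 for IKBKB and 1.31 for RBCK1. Among feedback inhibitors they were -0.34 for SOCS3, -0.58 for ITCH, 4.87 for SIGIRR and 2.65 for TNIP3. For receptors and IL-1 processing they were 4.46 for TLR2, 2.76 for TLR3, 0.38 for IL6ST, 2.30 for CASP1, 2.49 for GSDMD and 1.75 for NLRP3. TLR2 and TLR3 had 3 counts or fewer in each starved parental library, as did LTB and CXCL10, so their fitted values, which are counted among the 24, depend on the prior count.

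Other cytokines and targets gave -1.40 for IL12A, 5.58 for LTB, 4.32 for CXCL10, 3.09 for CSF2, -1.51 for GADD45B, -0.94 for IRF1, 6.04 for MMP9, 3.45 for SAA2, 3.66 for LCN2, 3.15 for PTGS2 and 2.35 for SAA1. Partner transcription factors gave -2.20 for ATF3, -4.06 for FOSB and 1.94 for STAT5A. The mRNA stability proteins gave -0.80 for ZFP36, -0.84 for RC3H2, 1.35 for ZC3H12A and 0.43 for MAPK14. The senescence and stress genes gave -1.53 for CDKN1A, 3.88 for IKBKE, 2.44 for TMEM173 and -0.69 for LMNB1.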

How the results depend on the processing

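With an adjusted p under 0.05 at any fold change, 8 of the 10 members were called in starved parental cells (2 up and 6 down) in place of 5, 78 of the pathway genes in starved ρ0 cells in place of 25, and 116 between the control groups in place of 57. The alternative itself, which drops the fold threshold, makes these counts larger. Under it 30.4% of all genes were up and 35.5% down in starved parental cells. The shares of all genes in the ρ0 and control comparisons were not counted, so nothing is read from the 78 and the 116. Of the other values that answer a comparison, 130 stayed within 1.5 times the reported one. No log2 fold change of a member reversed where it was called.

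Leaving out each library in turn gave 5 members called in starved parental cells each time and 6 to 8 between the control groups. In starved ρ0 cells 8 to 10 members were past 2-fold, and the pathway list gave 70 to 78 calls in parental cells, 17 to 34 in ρ0 cells and 55 to 70 between controls. In these fits the lone library of a group is assumed to vary like the other groups. The calls over all genes moved in these fits as well, so the ranges are no result about the list. With at least 10 counts in every library, fewer pathway genes were tested and 59, 18 and 40 were called. Of the 12470 genes tested with that filter, 1514 were called up and 2343 down in parental cells. The calls over all genes were 464 and 869 in ρ0 cells, and 1290 and 1586 between controls. The cause of other changes was not tested.

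The replicate numbers did not pair the libraries (correlation of deviations -0.045 in parental and -0.026 in ρ0 cells). With the replicate number as a block, 5 members were called in starved parental cells and 6 between the controls, as without it, and 24 in place of 25 pathway genes in ρ0 cells. At this depth, pathway genes with 3 counts or fewer in a group have fitted fold changes that depend on the prior count, and 2 libraries per group limit every estimate of spread.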
